A study of Arabidopsis thaliana with 9 samples.

Results

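Protoplasts of Arabidopsis thaliana T87 cells were set against intact T87 cells across every probe set of the Affymetrix ATH1 array. The comparison took the 3 arrays of protoplasts and the 3 arrays of intact cells, chosen by their titles alone, 6 of the 9 arrays of the study, and covered 22746 probe sets after 64 control probe sets were left out. T87 is a wild-type suspension line of undifferentiated, green, dividing cells. Intact cells were collected from a 4-day-old culture without further treatment. Protoplasts were made from the same kind of culture by digesting the wall for 1.5 h. The enzymes were cellulase Onozuka RS at 1% and, at 0.5%, pectolyase Y-23, and the solution held mannitol at 0.35 M. The protoplasts were then washed 3 times with 0.4 M mannitol and kept for 3 h in medium with 0.4 M mannitol. The remaining 3 arrays, used here as a side comparison, came from walled cells kept for 3 h in medium with 0.4 M mannitol, with no enzymes and no washes. The labels describe the 3 samples of each group as independent biological replicates, and name no mock change of medium for intact cells. Enzyme exposure, wall loss, washing, mannitol, handling and time thus cannot be told apart between protoplasts and intact cells. Wall loss, the enzymes, the washes and the longer procedure cannot be told apart between protoplasts and walled cells in mannitol.

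The plant primary wall is a mesh of cellulose tied by xyloglucan and embedded in pectin, and it carries the turgor of the cell. Wall fragments and microbial molecules are read by receptors at the plasma membrane, and calcium sensors, cytoplasmic kinases, WRKY transcription factors and U-box ubiquitin ligases act downstream of them. Protoplasts that survive digestion secrete new wall material, and those that divide again do so only after days in culture.

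Values are fluorescence intensities, and changes are differences of log2(intensity + 16), written as protoplasts minus intact cells with the standard error of the fit. A probe set was called at a limma adjusted p under 0.05, adjusted over all probe sets. Within groups the lowest correlation between arrays was 0.957, while the closest any protoplast array came to an array of another group was 0.899. Of the variance, 71.2% lay on the first principal component, which placed the protoplast arrays at 143, 139 and 99.2 and all other arrays below 0. Protoplast replicate 3 thus lay closest to the other groups. Its median departure from the intact mean was 1.46 over the probe sets called higher, against 1.75 and 1.74 for replicates 1 and 2, and -1.10 over those called lower, against -1.44 and -1.38. With 3 arrays a group, precision is limited by their number.

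Nearly as many probe sets differed between protoplasts and intact cells as did not. In protoplasts 3956 probe sets were higher and 6954 lower, 17.4% and 30.6% of those tested and 48.0% together. Probe sets whose 3 and 3 arrays did not overlap numbered 4805 higher and 7812 lower, 21.1% and 34.3%. Walled cells in mannitol differed from intact cells at 1836 probe sets, 8.07%. That count rested on single arrays, and leaving out intact replicate 1, 2 or 3 gave 844, 829 or 1003, while leaving out mannitol replicate 1 gave 948 and replicate 2 gave 762. Array weights gave 4704. Protoplasts differed from walled cells in mannitol at 9565, 42.1%. These comparisons share arrays, so their counts stand side by side and are not independent.

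Falls outnumbered rises, but rises were larger. At least 2-fold, 2979 probe sets were higher and 4897 lower. At least 8-fold, 887 were higher and 236 lower, at least 16-fold 481 and 41, and at least 64-fold 119 and 1. The split depended on how arrays were scaled: on the deposited scale 63.7% of calls were falls, with median-centred arrays 48.2%, with quantile-normalized arrays 59.7% and with arrays aligned on the hybridisation controls 72.7%. The median change of all probe sets was -0.11 as deposited, and 0.19, -0.09 and -0.35 under those 3 scalings. Changes of gene groups are therefore set beside the median of -0.11. In these bulk samples, fewer cells of a kind and less RNA per cell cannot be told apart.

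**Figure D1:**
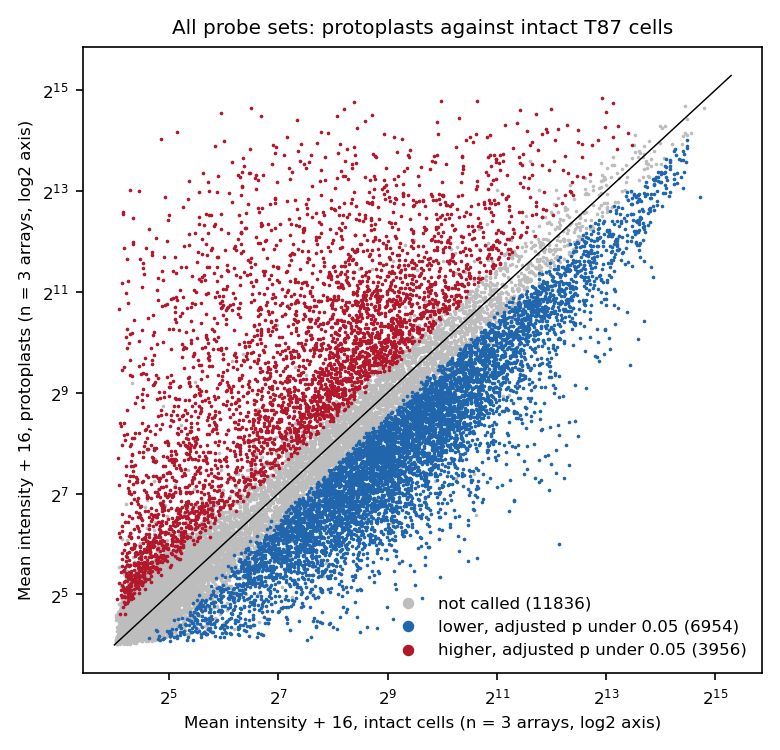
Mean intensity plus 16 of each probe set in intact cells (horizontal) and protoplasts (vertical), both on log2 axes, n = 3 arrays each, with the line of equality in black. The 3956 probe sets called higher spread far above the line, from the dimmest intact levels upward, and the 6954 called lower lie below it, 236 of them at least 8-fold.

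The changes carried a large part of the measured signal. Probe sets called higher held between 8.82% and 10.05% of the summed intensity on intact arrays, between 14.8% and 16.7% in walled cells in mannitol and between 42.2% and 51.0% in protoplasts. Probe sets called lower held between 62.8% and 65.0%, between 54.2% and 55.9% and between 23.5% and 30.4%. The same arrays chose these probe sets, so the shares describe the size of the change and test nothing.

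**Figure D2:**
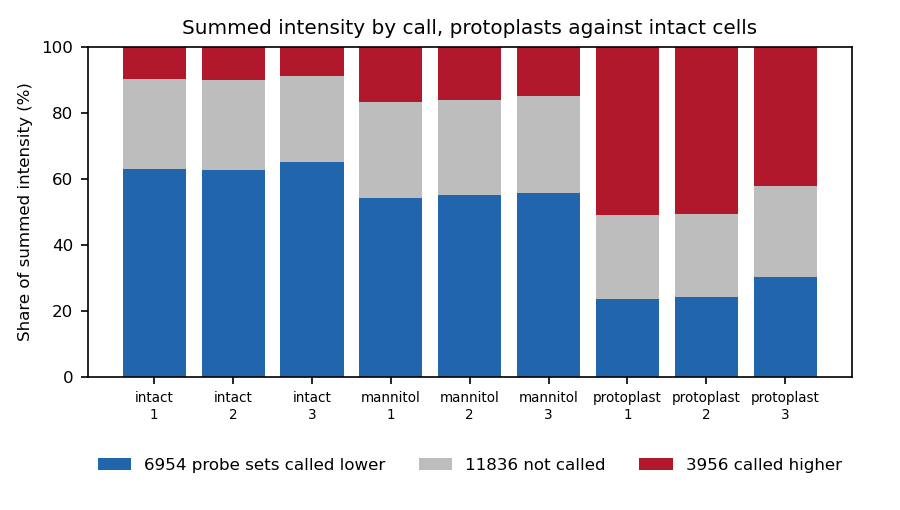
Share of the summed intensity of each array, in percent, held by probe sets called lower (blue), not called (grey) and called higher (red) in protoplasts against intact cells, 1 bar for each of the 9 arrays. The red share is between 42.2% and 51.0% in protoplasts and at most 16.7% on any other array.

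Calls were not spread evenly over brightness. Split into 5 equal bins by mean level, the dimmest bin had 3.76% higher and 1.58% lower, and the brightest 28.0% and 46.9%. The shares of all probe sets given beside gene groups are not matched for brightness. The part of brightness in the counts of those groups was not tested. Probe sets that the array annotation does not name gave 19.8% higher and 32.7% lower, and those with 1 gene 15.9% and 29.3%. Of the 69 probe sets of the plastid genome, 2 were higher and 1 lower. Genes at least 2-fold higher had a median length of 2145 bp and those at least 2-fold lower 2298.5 bp, against 1951 bp for genes not called.

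A set of genes went from near the bottom of the scale to high levels. Below an intensity of 100 on every intact array and above 1000 on every protoplast array were 151 probe sets, 82 of them with 1 gene. Of the 151, 38 were also below 100 on every array of walled cells in mannitol. The reverse pattern was met by 5 probe sets, 2 of them with 1 gene, AT1G28400 and AT5G19090.

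The largest rise of a gene with a locus was that of AT1G14550. Its intensities were 37.1, 8.4 and 12.3 in intact cells, 114, 124 and 28.5 in walled cells in mannitol and 19724, 21181 and 14101 in protoplasts, and its change was 9.09 ± 0.46 (limma adjusted p = 1.5e-06). Every protoplast array was far above every other array. AT3G16530 stood at 91.1, 61 and 71 in intact cells and at 27104, 29456 and 19697 in protoplasts, a change of 8.13 ± 0.43 (limma adjusted p = 1.68e-06). AT3G53600 read 2.84, 0.544 and 14.2 in intact cells, 11.2, 1.6 and 1.22 in mannitol and 10808, 9647 and 4056 in protoplasts. It rose by 8.48 ± 0.39 (limma adjusted p = 1.08e-06), while walled cells in mannitol differed from intact cells by -0.06. AT3G48450, with 7.45 ± 0.30 in protoplasts, had 0.46 in mannitol and was not called there. By contrast AT2G47550, at 132, 91.1 and 37.1 in intact cells and 21808, 25149 and 21912 in protoplasts, had changes of 7.92 ± 0.56 in protoplasts and 2.83 in mannitol. The latter was called, but not without intact replicate 2 or 3 or mannitol replicate 1 or 2 (limma adjusted p of at most 0.0716). The 15 largest rises of genes included AT1G26380 with 8.62, AT4G39670 with 7.52, AT2G43590 with 7.47 and AT5G39580 with 7.42. All of the 15 but GSTU25 and UGT73B4 were known here by locus code alone, and no role is given to them. Of the probe sets without a gene name, 260706_at with 9.21 ± 0.54 and 261474_at with 8.69 ± 0.55 rose most. All of these were dim in intact cells, so the size of each fold depends on the constant added before the log2 step: AT1G14550 had 10.07 with a constant of 1 and 7.78 with 64.

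The deepest fall was that of AT1G28400, from 4033, 4710 and 4785 in intact cells to 1629, 1310 and 953 in walled cells in mannitol and 54, 53.7 and 37.4 in protoplasts. Its change was -6.14 ± 0.22 (limma adjusted p = 4.42e-07), with -1.81 in mannitol. The groups formed 3 separate steps. AT2G19970 fell from 3638, 4396 and 3862 to 79.4, 155 and 121, a change of -4.92 ± 0.22 (limma adjusted p = 1.01e-06). AT4G24780 read 9846, 10284 and 12983 in intact cells, 10673, 11169 and 10565 in mannitol and 432, 645 and 1131 in protoplasts. It changed by -3.97 ± 0.30 (limma adjusted p = 1.02e-05) in protoplasts and by -0.02 in mannitol. AT1G64450 showed another course, with 437, 418 and 733 in intact cells, 14, 15 and 38.8 in mannitol and 7.59, 5.78 and 7.36 in protoplasts. Its change of -4.53 ± 0.28 in protoplasts was set beside -3.83 in mannitol, and the direct test between protoplasts and walled cells in mannitol did not pass (limma adjusted p = 0.0794) but did with the replicate number as a block (limma adjusted p = 0.0304). AT3G22540 and its neighbour AT3G22550 changed by -4.41 and -4.80, with 0.48 and -1.19 in mannitol.

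Genes next to each other on a chromosome moved alike somewhat more often than distant ones. Over 5810 pairs of adjacent measured genes the changes had a correlation of 0.117 across pairs. Over 5451 pairs of measured genes that lay 20 protein-coding genes apart, measured or not, it was 0.00149. Of the adjacent pairs with both genes called, 59.4% moved the same way, against 55.4% of the distant pairs. Among adjacent pairs, 10 had both genes at least 16-fold higher, against 2 among distant pairs. Of these 10 pairs 5 share a family symbol, such as BGLU45 with BGLU46, UGT73B5 with UGT73B4, XTH18 with XTH19 and BGLU31 with BGLU32. Probes of such related genes can bind each other's RNA, and the part of this in the pairs was not tested.

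**Figure D3:**
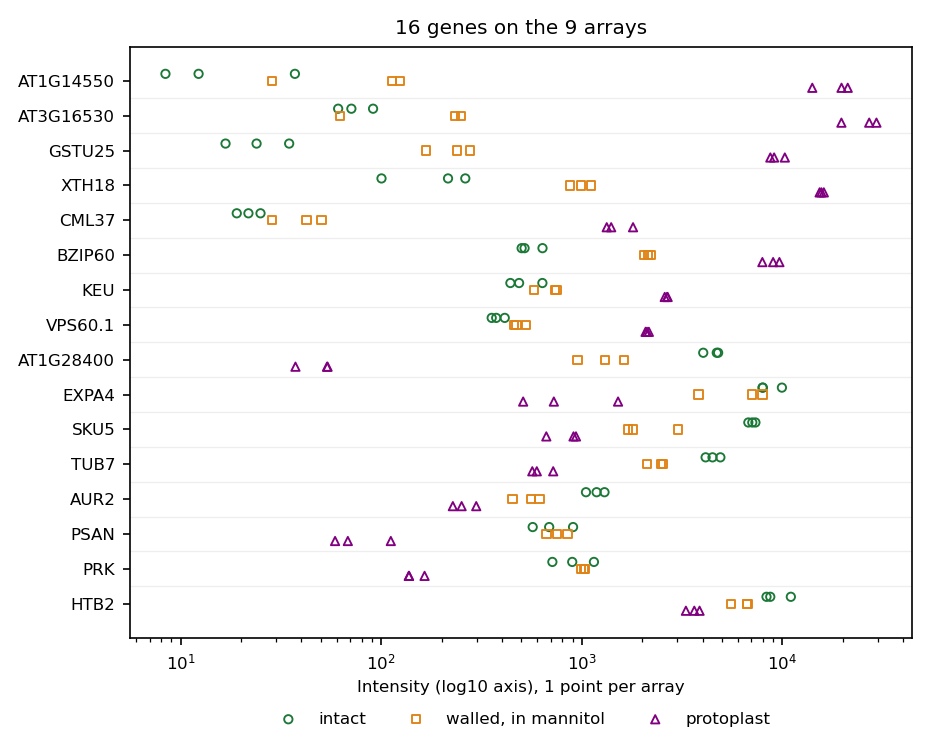
Intensity on a log10 axis of 16 genes on the 9 arrays, with 3 intact (circles), 3 walled cells in mannitol (squares) and 3 protoplast arrays (triangles) per gene. In the upper 8 genes every protoplast array lies above all others, and in the lower 8 below all others, while PSAN and PRK show walled cells in mannitol at the level of intact cells.

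Genes of pattern-triggered immunity rose, and other defence lists were mixed. All 7 genes of pattern-triggered immunity matched in the array annotation were called higher, against 17.4% of all probe sets. Their median change was 4.15, against -0.11. Like the other lists, this one was chosen with earlier results of these data known, so the count is description only. Its WRKY and U-box members are counted again in the tallies of those families below. BIK1, a cytoplasmic kinase that immune receptors activate, went from 805, 974 and 521 in intact cells to 12142, 13093 and 8770 in protoplasts. It rose by 3.88 ± 0.37 (limma adjusted p = 3.42e-05). EFR, the receptor for bacterial elongation factor Tu, read 7.46, 14.4 and 16.6 in intact cells, 17.1, 8.46 and 9.81 in mannitol and 503, 440 and 222 in protoplasts. Its change was 3.75 ± 0.30 (limma adjusted p = 1.21e-05), and mannitol by itself gave -0.05. The ubiquitin ligase genes PUB22, PUB23 and PUB24, known as brakes on immune signalling, rose by 4.43, 5.37 and 4.15. PUB23 was called in mannitol with 2.75. PUB22 had 2.12 there, a call lost in each fit that left out 1 array except those without mannitol replicate 3 or protoplast replicate 3 (limma adjusted p of at most 0.146), and PUB24 had 0.44, not called. Of 9 U-box genes 5 were higher and 2 lower, 55.6% and 22.2% against 17.4% and 30.6% of all probe sets. The lower ones were PUB25 with -1.67 ± 0.47 and PUB26 with -1.15 ± 0.37. PUB26 lost its call without intact replicate 2 or 3 or protoplast replicate 2 or 3 (limma adjusted p of at most 0.0968). WRKY22 rose by 5.94 ± 0.29. WRKY53 read 507, 729 and 183 in mannitol and 264, 408 and 469 in protoplasts, groups that overlap, and its change of 1.54 in protoplasts was lost without intact replicate 1 or protoplast replicate 3 (limma adjusted p of at most 0.053). Of 7 WRKY genes, WRKY22 and WRKY53 among them, 4 were higher, 57.1% against 17.4% of all probe sets, and 3 not called. WRKY6, a regulator of senescence and phosphate supply, rose by 3.87 ± 0.36. A list of 11 genes picked by defensin and thionin symbols held 2 higher and 3 lower, with a median of -0.22. These were 18.2% and 27.3%, against 17.4% and 30.6% of all probe sets. The 3 lower ones, ATLP-1, PDF1A and PDF1B, are not defensins or thionins, so the list does not describe that family. The higher count was 1 without intact replicate 2 or 3 or protoplast replicate 3. Of 8 glutamate receptor channel genes 2 were higher and 2 lower, 25% each, against 17.4% and 30.6%. The lower count was 1 whichever intact or protoplast array was left out. Of 2 MAP kinase genes 1 was lower, and both without protoplast replicate 3, and the only NAC gene matched in the annotation was lower.

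Calcium sensors of the calmodulin-like family were higher in 6 of 8 cases, 75% against 17.4% of all probe sets. Their median was 2.51 in protoplasts and 0.54 in mannitol. CML37 read 21.8, 25 and 19.1 in intact cells, 42.5, 28.5 and 50.4 in mannitol and 1332, 1402 and 1802 in protoplasts. It rose by 5.32 ± 0.20 (limma adjusted p = 4.67e-07). CML42 rose by 5.35 ± 0.31, AT1G76640, which the gene table lists as CML39, by 4.26 ± 0.45, and CML38 by 3.34 ± 0.65. CML41 and CML43 were dim and not called. The family did not move as a whole.

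Genes of hormone pathways moved in both directions. OPCL1, an enzyme of jasmonate synthesis, rose by 3.29 ± 0.49, and ORA47, a transcription factor gene of the jasmonate pathway, from 22.9, 41.1 and 46.9 to 692, 818 and 662. ORA47 had a change of 3.83 ± 0.22 (limma adjusted p = 2.46e-06) in protoplasts and 0.21 in mannitol. The jasmonate transcription factors MYC3 and MYC4 went apart, with 1.20 ± 0.20 and -2.71 ± 0.38. The auxin-conjugating enzyme genes GH3.3 and GH3.1 rose by 5.52 ± 0.49 and 4.95 ± 0.69, while GH3.17 of the same family changed by -3.14 ± 0.68. GRX480, a glutaredoxin that binds TGA transcription factors, read 71.7, 62.2 and 51.2 in intact cells and 6963, 6455 and 4110 in protoplasts, a change of 6.21 ± 0.29 (limma adjusted p = 1.07e-06). The chitinase gene CHI rose by 4.61 ± 0.42.

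Detoxification genes rose in part, and a few members carried each family. Of 51 UDP-glycosyltransferase genes, which attach sugars to small molecules, 15 were higher and 3 lower, with a median of 0.31. These were 29.4% and 5.88%, against 17.4% and 30.6% of all probe sets. Only 13 of the 51 had a mean above 200 in intact cells or protoplasts, and falls were rare among dim probe sets. The levels of UGT73B4 were 2.7, 4.39 and 5.81 in intact cells, 81.9, 71.5 and 52.7 in mannitol and 5014, 4892 and 1957 in protoplasts, a change of 7.49 ± 0.34 (limma adjusted p = 1.01e-06). GT72B1, which glucosylates phenolics and chlorinated phenols, read 133, 105 and 69.1 in intact cells, 218, 206 and 174 in mannitol and 13705, 15933 and 6048 in protoplasts. It changed by 6.57 ± 0.36 in protoplasts and 0.89 in mannitol. The 3 falls were -0.92 in UGT74D1, -1.41 in UGT71C3 and -1.55 in UGT85A4. UGT85A4 lost its call whichever intact array was left out, and without mannitol replicate 2 or protoplast replicate 1 or 2 (limma adjusted p of at most 0.150).

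Of 11 tau class glutathione transferase genes, 4 were higher, 36.4% against 17.4% of all probe sets, and 7 not called. GSTU25 went from 16.7, 34.8 and 23.9 to 9100, 10289 and 8712, and GSTU22 from 6.17, 25.5 and 20.9 to 532, 508 and 708. GSTU28 and GSTU21 reached only 54.4 and 64.4 in their middle protoplast array, and their changes of 1.61 and 0.96 were close to those of 1.96 and 0.71 in mannitol. GSTU18, at 312, 237 and 148 in intact cells, had 0.19 ± 0.29. AT5G52050, listed as the detoxification efflux carrier DTX50 in the gene table, rose by 6.88 ± 0.66, from 74.2, 87.9 and 4.36 to 8837, 7914 and 4388. Of 20 beta-glucosidase genes 6 were higher and 3 lower, 30% and 15% against 17.4% and 30.6% of all probe sets, with a median of -0.02. BGLU45 and BGLU46, which release monolignols from their glucosides, rose by 6.75 ± 0.49 and 6.44 ± 0.86, with 0.13 and 0.54 in mannitol. BGLU46 was at 4537 and 5138 in protoplast replicates 1 and 2 and at 401 in replicate 3.

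The monolignol list matched only 2 genes in the array annotation, CCR2 and HCT, and both were higher in protoplasts. CCOAMT was added after its values were seen. CCR2, a cinnamoyl-CoA reductase, read 196, 251 and 88 in intact cells, 1444, 1430 and 571 in mannitol and 13665, 14753 and 11863 in protoplasts, a change of 6.21 ± 0.42 (limma adjusted p = 5.5e-06). HCT rose by 3.51 ± 0.32, and CCOAMT, a caffeoyl-CoA methyltransferase, from 39.1, 34.9 and 62.9 to 5558, 4460 and 4501. Of 6 genes matched as class III peroxidases, 3 were higher and 1 lower, 50% and 16.7% against 17.4% and 30.6% of all probe sets. Other genes of the family can stand under locus codes alone, so the count does not describe the family. PRX52, a peroxidase that takes part in lignin formation, was at 880, 863 and 205 in intact cells and at 13722, 14108 and 12606 in protoplasts, with a change of 4.59 ± 0.66. PRXR1 fell from 2986, 3214 and 7962 to 239, 312 and 864.

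Wall genes moved in both directions. Enzymes that cut and rejoin xyloglucan, the XTH family, were higher in 4 of 10 cases, and 6 were not called. The higher share was 40%, against 17.4% of all probe sets. XTH18 reached 15338, 15662 and 16098 in protoplasts from 263, 215 and 100 in intact cells, with 988, 1116 and 871 in mannitol. XTH29 read 18.5, 13.5 and 21.5 in intact cells, 15.6, 17.6 and 17.6 in mannitol and 411, 384 and 198 in protoplasts, a change of 3.301 ± 0.26 against -0.03 in mannitol. CSLC04, which makes the glucan backbone of xyloglucan, rose by 2.73 ± 0.19, while its relatives CSLC5 and ATCSLC08 changed by -2.05 ± 0.29 and -2.09 ± 0.26. CSLD2, a cellulose synthase-like gene of tip growth, rose from 881, 932 and 811 to 4427, 4741 and 3309.

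A few genes of wall loosening and cellulose trimming fell far. Of 19 expansin genes, whose products loosen walls without cutting them, 5 were lower and 2 higher, with a median of -0.01. These were 26.3% and 10.5%, against 30.6% and 17.4% of all probe sets. Only 7 of the 19 had a mean above 200 in intact cells or protoplasts. The higher count was 1 without intact replicate 2 or 3, mannitol replicate 2 or protoplast replicate 1 or 2, and 5 after median centring. EXPA4 was at 7962, 7997 and 9951 in intact cells, 7972, 7033 and 3815 in mannitol and 510, 726 and 1517 in protoplasts, a change of -3.35 ± 0.40 (limma adjusted p = 1.12e-04). Of 15 genes of the GH9 endoglucanases, which include enzymes that trim cellulose, together with the galactosidase gene BGAL16, 7 were lower and 9 not called, with a median of -0.67. The lower share was 43.8%, against 30.6% of all probe sets. GH9B13 went from 2339, 2527 and 5878 to 115, 277 and 477, and GH9B7 from 2230, 2078 and 3150 to 364, 458 and 711. Both kept every protoplast array below every other array. COB, which guides cellulose deposition, fell from 714, 839 and 761 to 108, 163 and 165, and SKU5, a membrane-anchored protein of directional growth, from 6768, 7082 and 7340 to 666, 910 and 936. CKS, which activates the sugar KDO of pectin, fell from 652, 632 and 625 to 167, 155 and 262.

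Genes that decorate or monitor the wall were called about as often as all probe sets or less. Of 22 TBL genes, which include acetyltransferases of wall polysaccharides, 3 were higher and 4 lower, 13.6% and 18.2% against 17.4% and 30.6% of all probe sets. Only 10 of the 22 had a mean above 200 in intact cells or protoplasts. The higher count was 1 without intact replicate 1 and 6 after median centring. TBL36 fell from 8404, 8719 and 9985 in intact cells and 6547, 7755 and 8394 in mannitol to 1098, 1674 and 2268 in protoplasts. Of 11 RALF genes, peptides that signal through wall-bound receptors, 2 were higher and 3 lower, 18.2% and 27.3%. RALFL33 read 2102, 1786 and 1235 in intact cells, 1115, 957 and 1028 in mannitol and 4601, 5501 and 3865 in protoplasts. It rose by 1.46 ± 0.23 (limma adjusted p = 5.4e-04), where mannitol gave -0.69, not called. RALFL24 and RALFL34 fell by 2.76 and 2.37 on the log2 scale. The receptor kinase gene THE1 fell from 462, 472 and 436 to 91.9, 98.8 and 159, and FER, a receptor of RALF peptides, was at 2036, 2220 and 1898 against 3303, 3290 and 2977. FER changed by 0.63 ± 0.16 (limma adjusted p = 0.00964) and was not called after centring on the hybridisation controls.

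Genes of subtilases and serine carboxypeptidase-like proteins are given by their counts. Of 8 subtilase genes 3 were higher, 37.5% against 17.4% of all probe sets, and 5 not called. SBT3.5 went from 56.1, 68.1 and 57 to 1723, 1735 and 1032, a change of 4.27 ± 0.22. Of 29 genes of serine carboxypeptidase-like proteins, 11 were lower and 18 not called, with 37.9% lower against 30.6% of all probe sets and a median of -0.23. Some of the latter were higher under other settings, 2 without protoplast replicate 1, 1 without mannitol replicate 2 and 5 after median centring. In mannitol 1 of them was lower and 1 higher. The member scpl26 fell from 651, 724 and 618 to 71.6, 93.2 and 124, with -0.43 in mannitol and -2.62 ± 0.20 in protoplasts.

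Most genes of the mitotic apparatus, replication, histones and tubulins fell. Of 16 genes of the mitotic apparatus 15 were lower, with a median of -1.75, and the exception, CDC27a, varied from 52.5 to 90.1 in intact cells and from 58.8 to 152 in protoplasts. The same genes had a median of -0.72 in mannitol, where 6 were lower, and 12 of 16 were lower in protoplasts than in walled cells in mannitol. The count of 6 was 3 without intact replicate 1 or 2 or mannitol replicate 2, 2 without mannitol replicate 1 and 10 without protoplast replicate 3. AUR2, an Aurora kinase of the spindle, read 1186, 1050 and 1298 in intact cells, 451, 615 and 557 in mannitol and 228, 298 and 252 in protoplasts. The 3 groups did not overlap, and the change was -2.12 ± 0.18 (limma adjusted p = 1.9e-05). The chromosome-binding protein gene 3xHMG-box2 fell from 2955, 3187 and 3270 to 201, 248 and 611, and KINESIN-12B, of the plate that builds the new cross wall, from 299.8, 336 and 339.8 to 61.9, 66.3 and 77.1. BUBR1 and BUB3.1 of the spindle checkpoint changed by -1.73 each.

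All 6 genes of the DNA replication group were lower, against 30.6% of all probe sets, with a median of -1.88 and one of -0.79 in mannitol. POLD3, a subunit of a replicative polymerase, fell from 592, 584 and 579 to 146, 144 and 110. Of 8 histone genes 7 were lower, 87.5%, with a median of -0.98. HTB2, encoding histone H2B, was at 8337, 8706 and 11025 in intact cells, 6662, 6703 and 5552 in mannitol and 3640, 3305 and 3866 in protoplasts. HTR12, the histone of centromeres, changed by -2.16 ± 0.25. Of 7 tubulin genes 6 were lower, 85.7%, with a median of -1.88. TUB7 fell from 4145, 4910 and 4486 to 567, 597 and 720, by 2.82 on the log2 scale, and by 0.92 in mannitol.

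Genes of the cytoskeleton other than tubulin moved in both directions. Of 10 NET genes, whose proteins bind actin at membranes, 3 were higher and 5 lower, 30% and 50% against 17.4% and 30.6% of all probe sets. NET3C fell from 421, 273 and 302 to 2.82, 13 and 6.86, and NET1A from 623, 813 and 797 to 69.9, 76.4 and 87.6. NET2D rose from 146, 130 and 106 to 746, 606 and 474, and NET4B by 2.32 ± 0.39. Of 15 IQD genes, scaffolds that link calmodulin to microtubules, 4 were higher and 6 lower, 26.7% and 40%. Of 14 genes of TON1-recruiting motif proteins, which help to place microtubule arrays, 4 were lower and 10 not called, 28.6% lower against 30.6% of all probe sets, with a median of -0.36. IQD24 changed by -3.64 ± 0.47 and IQD23 by 2.05 ± 0.41.

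Nuclear genes of photosynthesis fell in protoplasts. Of 17 such genes 16 were lower in protoplasts, 94.1% against 30.6% of all probe sets, with a median of -1.58. In mannitol their median was 0.17 and limma called 0 of them, or 1 without mannitol or protoplast replicate 3, and 3 had an unadjusted p under 0.05. In the direct test of protoplasts against walled cells in mannitol all 17 were lower, against 27.3% of all probe sets. PRK, phosphoribulokinase of the carbon fixation cycle, read 896, 1150 and 714 in intact cells, 995, 1035 and 1025 in mannitol and 137, 165 and 138 in protoplasts. Its change was -2.504 ± 0.19 (limma adjusted p = 1.11e-05). RCA, which activates Rubisco, was at 5038, 5116 and 3922, then 5690, 5519 and 4446, and 1219, 1540 and 1506. ATPC1, a subunit of the chloroplast ATP synthase, changed by -2.36 ± 0.17, SBPASE of the same carbon cycle by -1.70 ± 0.23, and PSBW of photosystem II by -1.47 ± 0.19. Outside the list, CaS, a calcium-sensing thylakoid protein, fell from 2879, 3583 and 2335 to 248, 424 and 521, and FTSZ2-2, of the ring that divides plastids, from 384, 509 and 466 to 69.2, 67.4 and 162.

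Tetrapyrrole synthesis, the path to chlorophyll and heme, did not move as one. Of 13 genes 7 were lower and 3 higher, 53.8% and 23.1% against 30.6% and 17.4% of all probe sets. HEMA2, a glutamyl-tRNA reductase at the entry of the path, read 299.5, 243 and 282 in intact cells, 498, 481 and 383 in mannitol and 6679, 7170 and 3672 in protoplasts, a change of 4.28 ± 0.26 (limma adjusted p = 3.13e-06). GSA1, the next step, rose by 0.88 ± 0.18. HEMB1, also higher, lost its call whichever intact array was left out, and without protoplast replicate 1 or 2 (limma adjusted p of at most 0.0784). CHLI2, of the enzyme that puts magnesium into chlorophyll, fell from 325, 362 and 365 to 34.5, 18.6 and 52.5, and PORB, a later reductase of chlorophyll synthesis, by 1.89 on the log2 scale.

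On the deposited scale few probe sets of the organelle genomes were called. Of the 69 plastid-genome probe sets, called 2 higher and 1 lower, the median change was 0.24, and over the 23 mitochondrial ones the median was 0.07, with 0 called by limma and 1 at an unadjusted p under 0.05. The count of plastid rises rested on single arrays and on scaling, with a range from 0 to 7 when 1 array was left out, 7 without protoplast replicate 3, and 19 after median centring. The gene rbcL, for the large subunit of Rubisco, was at 1684, 1311 and 2014 in intact cells and 837, 1088 and 712 in protoplasts. Its call at -0.91 ± 0.28 was lost without intact replicate 1 or 3 or protoplast replicate 1 or 3 (limma adjusted p of at most 0.078). RNA was labelled from its 3-prime end, and plastid transcripts mostly lack the long tails of nuclear ones. Their levels and changes should therefore not be set against those of nuclear genes.

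Several machineries of secretion and membrane traffic held more rises than falls. Of 17 genes of vesicle tethering and fusion, 6 were higher and 3 lower, 35.3% and 17.6% against 17.4% and 30.6% of all probe sets. The counts were 3 higher after centring on the hybridisation controls and 1 lower after median centring or quantile normalization. KEU and SEC1B, both of the Sec1 family that guides vesicle fusion, KEU at the cell plate, were among those that rose. KEU read 487, 441 and 636 in intact cells, 737, 578 and 749 in mannitol and 2661, 2680 and 2592 in protoplasts, a change of 2.32 ± 0.19 (limma adjusted p = 1.31e-05). SEC1B went from 263, 297 and 251 to 2698, 2176 and 1773, with -0.45 in mannitol, not called. RAB6A, a Golgi GTPase, changed by -1.16 ± 0.25, and ARA6, an endosomal GTPase, by 0.12 ± 0.16.

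Of 11 genes of the PRA1 family, small membrane proteins that bind Rab GTPases, 6 were higher and 1 lower. These were 54.5% and 9.09%, against 17.4% and 30.6% of all probe sets. PRA1.B6, among the higher ones, lost its call without intact replicate 1 or 2 or protoplast replicate 1 or 2 (limma adjusted p of at most 0.120). The family had a median of 0.80 in protoplasts and -0.11 in mannitol. There limma called 0, and 1 had an unadjusted p under 0.05. PRA1.B4 rose from 372, 354 and 335 to 1835, 2401 and 1068. Of 12 genes of the ESCRT machinery, which sorts membrane proteins into multivesicular bodies, 6 were higher and 2 lower, 50% and 16.7%. In mannitol limma called 0 of them, or 1 without protoplast replicate 3, and 7 had an unadjusted p under 0.05. VPS60.1 read 413, 375 and 356 in intact cells, 459, 473 and 526 in mannitol and 2080, 2115 and 2160 in protoplasts, a change of 2.43 ± 0.15 (limma adjusted p = 3.1e-06). ELC, which binds ubiquitin, rose by 2.01 ± 0.19, and VPS2.2 changed by -1.04 ± 0.21. TET8, a tetraspanin of extracellular vesicles, was at 454, 409 and 368 in intact cells, 1474, 1199 and 1092 in mannitol and 13231, 15438 and 12202 in protoplasts, a change of 4.998 ± 0.18 (limma adjusted p = 4.42e-07).

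Genes of quality control in the endoplasmic reticulum moved in both directions. Of 13 probe sets 3 were higher and 4 lower, the former 5 after median centring. These were 23.1% and 30.8%, near the 17.4% and 30.6% of all probe sets. BZIP60, a transcription factor of the unfolded protein response, read 637, 519 and 502 in intact cells, 2198, 2049 and 2144 in mannitol and 9668, 8996 and 7952 in protoplasts. BZIP28, of the same response, rose by 2.18 ± 0.18. The calreticulin gene CRT1b, a folding helper, fell from 5092, 5159 and 6562 to 1915, 2231 and 2322, a change of -1.37 ± 0.17, and the co-chaperone gene ATERDJ2A changed by -1.04 ± 0.16.

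Turnover and storage genes gave mixed values. Of 10 genes of ATG8 and ATG3, which build autophagosomes, 6 were higher and 1 lower, 60% and 10% against 17.4% and 30.6% of all probe sets. Their median was 0.58 in protoplasts and 0.50 in mannitol. The count of 6 was 3 after centring on the hybridisation controls, and the single lower member, ATG8G, lost its call without intact replicate 2 or 3 or protoplast replicate 1 or 2 (limma adjusted p of at most 0.102). ATG8H went from 58.8, 51.1 and 49.7 through 410, 316 and 697 to 1846, 1650 and 1593, and ATG8E from 128, 70.4 and 113 through 605, 797 and 579 to 3134, 2605 and 2974. ALPHA-VPE, a vacuolar protease, rose by 4.11 ± 0.53. Of 12 dehydrin and late embryogenesis genes 3 were higher, 25% against 17.4% of all probe sets, and 9 not called. The higher count was 5 after median centring. LTI30, a dehydrin, was at 303, 254 and 275 in intact cells, 8662, 5078 and 9596 in mannitol and 21437, 27688 and 26526 in protoplasts. Most of that group did not follow it.

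Genes of respiration were called no more often than all probe sets. Of 25 probe sets of citrate metabolism and respiration 3 were higher and 7 lower, 12% and 28.0% against 17.4% and 30.6%, the latter count 4 without intact replicate 1 or protoplast replicate 1 or 2. NDB2, an alternative NADH dehydrogenase, stood apart with 169, 162 and 266 in intact cells, 1051, 677 and 758 in mannitol and 5584, 6287 and 4128 in protoplasts. Of 6 genes of RNA polymerase II subunits 5 were lower, 83.3% against 30.6% of all probe sets, with a median of -0.85. NRPB9B fell from 1154, 924 and 1313 to 144, 155 and 282. MCCB, of leucine breakdown, changed by -2.66 ± 0.33.

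BZIP53 and HIS1-3 differed between protoplasts and walled cells in mannitol. BZIP53, a regulator of amino acid metabolism, read lower in mannitol, by -0.93 (limma adjusted p = 0.0261), a call lost whichever intact or mannitol array was left out (limma adjusted p of at most 0.0916). It rose in protoplasts by 1.75 ± 0.20, with 1152, 1232 and 1446 in intact cells, 696, 639 and 644 in mannitol and 5042, 4939 and 3239 in protoplasts. HIS1-3, a linker histone induced by drought, was at 122, 105 and 87.3 in intact cells, 579.96, 733 and 146 in mannitol and 28.1, 28 and 16.9 in protoplasts. In mannitol it read higher by 1.797 (limma adjusted p = 0.0553, and 0.0282 with the replicate number as a block). Its fall in protoplasts against intact cells was lost without intact replicate 1 or 2 or protoplast replicate 3 (limma adjusted p of at most 0.071), whereas its difference from walled cells in mannitol was -3.38 (limma adjusted p = 5.5e-04).

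Other gene lists gave smaller or mixed counts. Of 24 cytochrome P450 genes 4 were higher and 1 lower, 16.7% and 4.17% against 17.4% and 30.6% of all probe sets. Only 2 of the 24 had a mean above 200 in intact cells or protoplasts. The higher count was 9 after median centring and 2 after centring on the hybridisation controls. The rise of CYP71B23 was lost without intact replicate 1 or 2, mannitol replicate 1 or 2 or any protoplast array (limma adjusted p of at most 0.163). The fall, in CYP71B28, was lost without intact replicate 1 or 3 or protoplast replicate 1 or 2. Of 8 aldehyde dehydrogenase genes 2 were higher and 5 lower, 25% and 62.5%, with a median of -0.92. Of 14 SWEET sugar transporter genes 3 were higher, 21.4%, or 6 after median centring, and 11 were not called. SWEET16, among the higher ones, lost its call without intact replicate 1 or 2 or protoplast replicate 1 or 2 (limma adjusted p of at most 0.117). It also lost it with the replicate number as a block. Of 12 ubiquitin-conjugating enzyme genes 2 were higher and 5 lower, 16.7% and 41.7%, the lower count being 3 after median centring. Of 12 ubiquitin-specific protease genes 4 were higher and 3 lower, 33.3% and 25%.

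**Figure D4:**
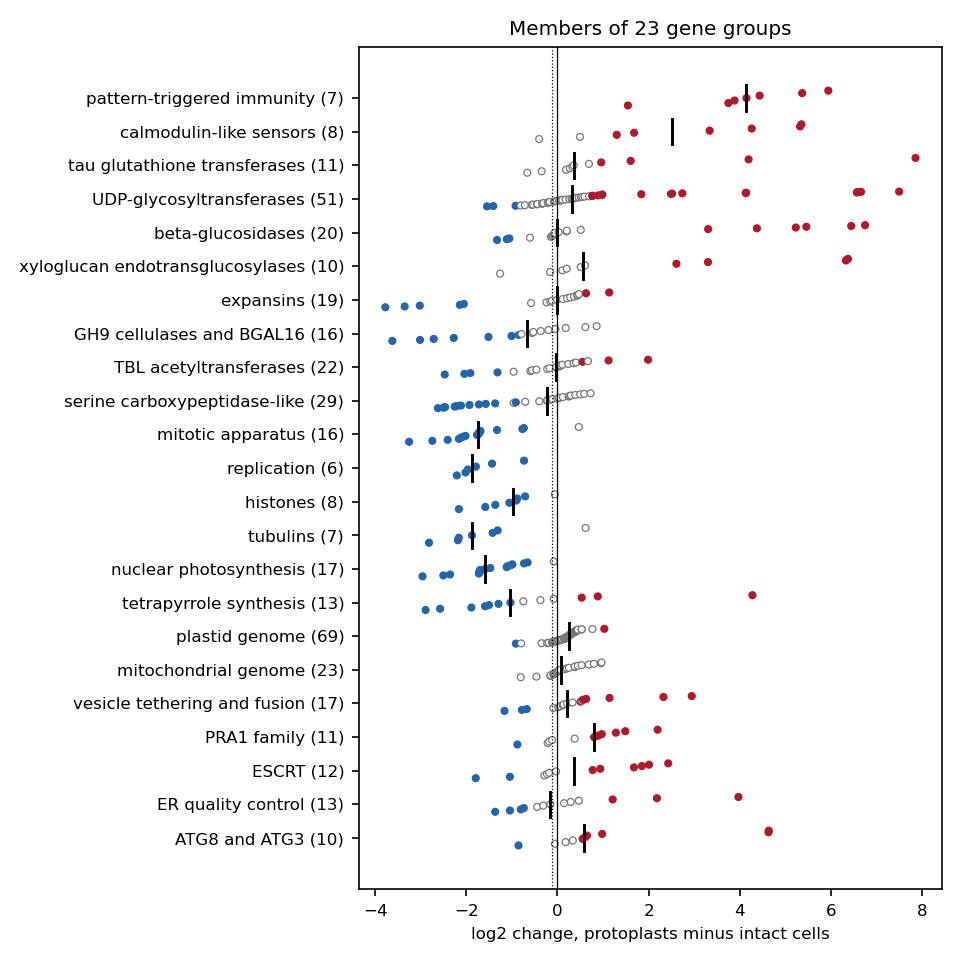
Change in log2(intensity + 16), protoplasts minus intact cells, of each member of 23 gene groups, with the number of probe sets in brackets. Filled red and blue points were called higher and lower, open points were not called, black bars mark group medians and the dotted line the median of all probe sets at -0.11. Mitotic, replication, tubulin and nuclear photosynthesis genes lie almost wholly to the left and plastid genome probe sets near 0. Pattern-triggered immunity genes, a list chosen with earlier results known, and most calmodulin-like sensors lie to the right. The serine carboxypeptidase-like group has a median of -0.23.

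Markers of other cell types and signs of RNA quality were read beside these results. The root hair genes EXPA7 and EXPA18, the guard cell gene FMA and the xylem gene GUT2 were not called by limma, and none of the 4 had an unadjusted p under 0.05. Summed over EXPA7 and EXPA18, intensities lay between 31.8 and 67.6 on intact and between 31.8 and 65.9 on protoplast arrays, FMA lay between 3.92 and 25.4 on intact and between 5.7 and 20.5 on protoplast arrays, and GUT2 between 104 and 114 and between 94.3 and 110.5. Markers of seed storage, epidermis, trichome and phloem were not analysed here. On control probe sets the log2 ratio of 3-prime to 5-prime signal was 0.308 ± 0.160 in intact cells and 0.576 ± 0.190 in protoplasts for GAPDH (SD, n = 3, exact permutation test, two-sided, p = 0.2). It was 3.79 ± 0.0586 and 3.398 ± 0.109 for actin (exact p = 0.1, the smallest that 3 against 3 arrays allow) and 1.25 ± 0.308 and 1.00 ± 0.138 for ubiquitin (exact p = 0.3). The part of these values in the gene groups above was not tested.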

How the data were processed

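Per the labels, total RNA (750 ng) from T87 cells was labelled from its 3-prime end with biotin and read on ATH1 arrays. The deposited values are linear intensities, 1 per probe set and array, each array scaled to a trimmed mean of 500 without its top and bottom 2%, as the values show. Which software turned probes into probe set values was not stated in any source at hand. There are no detection calls, so dim probe sets cannot be told from background. Of 22746 probe sets, 13513 had 1 gene in the array annotation, which can be old, 503 several and 8730 none, and 13436 were matched to the gene table of TAIR10.1, used for names, lengths and order.

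All 9 arrays entered 1 model of log2(intensity + 16) in limma 3.58.1 (R 4.3.3), with Benjamini-Hochberg adjustment over all probe sets within each comparison. The constant understates changes of dim probe sets. The fit was tested on simulated data. Same-numbered mannitol arrays deviated together with intact arrays (correlations of 0.127, 0.1997 and 0.337) and with protoplast arrays (0.207, 0.136 and 0.3397). However, intact replicate 1 correlated better with mannitol replicate 2, at 0.154, and mannitol replicate 2 better with protoplast replicate 1, at 0.166. Only replicate number 3 thus stood apart, the labels name no pairs, and the replicate block is an alternative in those comparisons too. Tables and figures were made with Python 3.11.15, pandas 2.3.3, scipy 1.17.1 and matplotlib 3.10.9.

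Members and gene lists were chosen with earlier results of these data known, and several lists after the annotation was seen. The symbols CKS, ATCRT1 and Hsp70-2 were taken out of their lists because their loci belong to other functions. ATLP-1, PDF1A and PDF1B stayed in the defensin and thionin list, although they are neither. Named genes were the 15 largest rises and falls of one-gene probe sets whose arrays did not overlap, from each list at most 3 rises and 3 falls or the 2 with the lowest p where none was called, the 2 most changed unnamed probe sets each way and the 5 most changed each way above 5000. BIK1, EFR, WRKY53, GH3.1, GH3.3, GH3.17, GRX480, ORA47, CCOAMT, CaS, RCA, SBPASE, TET8, COB, CKS, BUBR1, BUB3.1, CDC27a, FTSZ2-2, GH9B7, GSTU18, GSTU21, UGT73B5, CML38, CML41 and CML43 were named after their values were seen. Of 97 lists, 15 had no measured member.

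Alternatives were a replicate block, fits to both groups only, 3 other scalings, constants of 1 and 64, a filter on the dimmest 40%, an adjusted p under 0.01, other variance models, 1 probe set a gene and leaving out each array.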

Additional observations from a re-analysis of the deposited data

How the results depend on the processing

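Walled cells in mannitol differed from intact cells, in settings added after seeing the data, at 762 to 2578 probe sets leaving out 1 array, 1213 with centring on the hybridisation controls, 1129 with a constant of 1, 560.0 at an adjusted p under 0.01, 4704 with array weights, 977 with 1 probe set a gene and 2981 without all arrays of replicate number 3. With 1 probe set a gene, which leaves 13350 genes to test, counts of calls were 2108 higher and 3898 lower, 1564 and 2773 at least 2-fold, and 5203 differed between protoplasts and walled cells in mannitol. Leaving out 1 array at a time gave from 3510 to 4087 higher and from 6121 to 7158 lower calls, and from 2830 to 3097 and from 4522 to 5288 at least 2-fold. With the replicate number as a replicate block they were 4125 higher and 7207 lower, 3018 and 4966 at least 2-fold. Same-numbered protoplast and intact arrays had correlations of 0.098, 0.0256 and 0.151 between their deviations from the group means, and intact replicate 2 correlated better with protoplast replicate 1, at 0.108, than with its own number, so the numbers were not taken as pairs there. For the mannitol comparisons, where only replicate number 3 stood apart, the block gave 2297 against 1836 calls and 10080.0 against 9565. The calls it changed among those stated are given with the results. Without all arrays of replicate number 3, an alternative chosen after seeing the data, 4358 were higher and 7647 lower. Of 294 named probe sets called, 254 kept their call in every fit that left out 1 array, 4 lost it with the replicate block, 20 with median centring, 20 with centring on the hybridisation controls, 15 with quantile normalization, 10 and 7 with constants of 1 and 64 and 46 at an adjusted p under 0.01, and 0 changed direction under any of the 22 settings. The promoter motif search that had been planned was not run, since no sequence was at hand. Without detection calls, values near the bottom of the scale set no order among dim genes, and small changes are limited by 3 arrays a group.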
